A study of Homo sapiens with 2 samples.

Results

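The short arm of chromosome 12 (12p), the long arm of chromosome 17 (17q) and the long arm of chromosome 20 (20q) were examined in ATAC-seq peak lists of WIBR3, an established line of human embryonic stem cells. ATAC-seq maps open chromatin through a transposase that inserts adapters into accessible DNA. The study compared primed cells, the usual state of such lines in culture, with hTBLCs, blastomere-like cells that the study derives by repressing the spliceosome, and asked which chromatin opened and which closed. Each state had 1 library, both are labelled hESC, and the labels give no passage, agent, time or karyotype. Members were all peaks whose summit lay on hg38 chromosome 12 below 33.2 Mb, on chromosome 17 above 27.4 Mb or on chromosome 20 above 30.4 Mb. They numbered 27518 of 595426 peaks, 14218 of 295753 in the primed library and 13300 of 299673 in the hTBLC library. By arm, 12p held 3427 primed and 3496 hTBLC peaks, 17q held 6912 and 6162, and 20q held 3879 and 3642.

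Human pluripotent stem cells kept in long culture recurrently acquire extra copies of 12p, of 17q and of the band 20q11.21. 12p carries NANOG, a core pluripotency factor. 17q carries BIRC5, which encodes the apoptosis inhibitor survivin, and 20q11.21 carries BCL2L1, whose main product BCL-XL protects cells from apoptosis. Extra DNA copies would add transposase targets in every region of the affected stretch, so a library with a gain should hold more fragments there. If 3 copies replaced 2 in every cell of 1 library, the ratio would be 1.5, or 0.58 on the log2 scale. This is arithmetic for reading the sizes, since copy number was not measured in these libraries and a gain that both libraries carried would cancel in their ratio.

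The promoters on which the gene results turned are shown as the 250 bases before the annotated start, on the strand of the gene, from RefSeq (assembly GRCh38.p14, with the primary coordinates of hg38). Capitals mark matches, on either strand, to 7 strings: the CCAAT box CCAAT, the GC box GGGCGG, the TATA box TATAAA, the E-box CACGTG, the ETS core CCGGAAG, the CRE TGACGTCA and the octamer ATTTGCAT. No string contains another. Of 15812 promoter windows of this length, 34.4% held the CCAAT box, 56.0% the GC box, 9.25% the TATA box, 7.83% the E-box, 11.8% the ETS core, 2.32% the CRE and 1.66% the octamer. A match is a description of the letters only. BCL2L1 (minus strand, chr20:31723964-31724213), ASXL1 (plus strand, chr20:32358081-32358330) and DNMT3B (plus strand, chr20:32779602-32779851) lie in 20q11.21. At these 3 windows the hTBLC library had more signal, but the window of DNMT3B is at an annotated start 17466 bp inside the gene, and its outer start differed. CEBPB (plus strand, chr20:50190333-50190582), further out on 20q, had less signal. ETV6 (plus strand, chr12:11649424-11649673) and NANOG (plus strand, chr12:7789152-7789401) went opposite ways on 12p. TK1 (minus strand, chr17:78187205-78187454) is an example of a 17q promoter with less signal in the hTBLC library.
BCL2L1: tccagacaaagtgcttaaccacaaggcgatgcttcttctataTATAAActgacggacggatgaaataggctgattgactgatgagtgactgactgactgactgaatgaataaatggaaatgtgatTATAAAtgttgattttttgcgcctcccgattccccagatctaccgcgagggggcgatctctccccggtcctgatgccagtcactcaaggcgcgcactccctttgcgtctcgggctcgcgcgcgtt
ASXL1: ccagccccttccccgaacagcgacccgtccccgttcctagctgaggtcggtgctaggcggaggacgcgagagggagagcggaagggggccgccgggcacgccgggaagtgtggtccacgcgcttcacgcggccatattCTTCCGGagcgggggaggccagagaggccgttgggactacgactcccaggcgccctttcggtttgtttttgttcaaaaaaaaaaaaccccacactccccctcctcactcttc
DNMT3B: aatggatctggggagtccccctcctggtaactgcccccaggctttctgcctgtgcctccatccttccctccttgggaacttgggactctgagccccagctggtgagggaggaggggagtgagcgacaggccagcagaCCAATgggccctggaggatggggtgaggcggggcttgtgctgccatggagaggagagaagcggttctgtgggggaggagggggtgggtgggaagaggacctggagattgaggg
CEBPB: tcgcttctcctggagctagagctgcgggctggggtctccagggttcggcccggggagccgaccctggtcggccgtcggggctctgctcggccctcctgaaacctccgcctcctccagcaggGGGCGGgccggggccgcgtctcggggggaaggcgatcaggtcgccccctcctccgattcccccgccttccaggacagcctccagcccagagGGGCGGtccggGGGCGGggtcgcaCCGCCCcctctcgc
ETV6: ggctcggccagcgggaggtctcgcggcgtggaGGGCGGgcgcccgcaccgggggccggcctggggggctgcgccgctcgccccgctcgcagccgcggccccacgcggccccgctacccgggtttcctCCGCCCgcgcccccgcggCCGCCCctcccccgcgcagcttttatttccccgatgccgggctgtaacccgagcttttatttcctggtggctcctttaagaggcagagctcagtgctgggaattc
NANOG: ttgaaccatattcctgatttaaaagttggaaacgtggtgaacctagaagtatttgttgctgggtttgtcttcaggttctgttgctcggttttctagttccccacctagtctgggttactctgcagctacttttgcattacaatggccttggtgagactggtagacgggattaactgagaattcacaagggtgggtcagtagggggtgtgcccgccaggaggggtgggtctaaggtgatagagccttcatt
TK1: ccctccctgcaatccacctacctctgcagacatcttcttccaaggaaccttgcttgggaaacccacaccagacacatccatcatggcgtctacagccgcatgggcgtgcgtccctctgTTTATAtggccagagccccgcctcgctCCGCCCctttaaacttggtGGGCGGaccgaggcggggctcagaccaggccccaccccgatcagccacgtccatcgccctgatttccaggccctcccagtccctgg
Among these windows BCL2L1 held 2 TATA boxes, DNMT3B 1 CCAAT box, ASXL1 1 ETS core, ETV6 3 GC boxes, CEBPB 4 GC boxes, and TK1 2 GC boxes and 1 TATA box. NANOG held none of the 7 strings. The windows of 20q11.21 shared no string with each other, and their GC contents were 50%, 64% and 64%.

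The signal at a region was the pileup, the whole number of fragments or reads stacked at the summit of its strongest peak, solved from the authors' fold enrichment and −log10 p. Peaks that overlapped or touched were merged into regions, and regions that overlapped 1 to 1 between the libraries were matched. Ratios of hTBLC to primed pileup were divided by 1.09, the ratio of the lowest local backgrounds (1.96 and 1.79), which stood in for relative depth. Equal pileups in both libraries therefore read as −0.13 on the log2 scale, which was also the median of 1 Mb windows over all arms. The comparison of 1 arm with another does not depend on this scaling. The share of cells with an open region and the openness per cell cannot be told apart in such bulk libraries. With 1 library per state there is no replicate spread and no test between the states. Intervals are 95% intervals for counting error or for the spread over regions only.

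The pluripotent label was checked at promoters. All 6 pluripotency genes of the marker list with a promoter window in the sequence table had a region there in both libraries. Of the other markers with a window, regions were found at 1 of 3 fibroblast genes in primed and 2 of 3 in hTBLC, at 0 of 1 and 1 of 1 endoderm gene (GATA6), and at 3 of 4 and 2 of 4 trophectoderm genes. TP63 had no region there in either library. Over all 15812 promoters, 70.7% had a region in both libraries, so these few counts say little about cell type.

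The median ratio of hTBLC to primed signal was lower on 17q and 20q than on the other arm of the same chromosome. On 12p the median was the same as on 12q. At the 1597 matched regions of 12p the median pileup was 24 in primed and 23 in hTBLC, and the median log2 ratio was −0.13 (−0.13 to −0.06), the same value as on 12q (−0.13, 4826 regions). This is the value of equal whole pileups, at which medians tie, so a difference of 0 here does not show that the arms are alike. At the 3100 matched regions of 17q the median pileup was 30 in primed and 25 in hTBLC. The median log2 ratio on 17q was −0.28 (−0.31 to −0.25), against −0.19 (−0.25 to −0.13, 1083 regions) on 17p, a difference of −0.09 with intervals that met at −0.25. At the 1790 matched regions of 20q the median pileup was 24 in primed and 23 in hTBLC. The median log2 ratio on 20q was −0.23 (−0.26 to −0.19), against −0.09 (−0.13 to −0.04, 1306 regions) on 20p, a difference of −0.15 with intervals that did not overlap. None of the 3 arms stood above its other arm by as much as 0.58. This comparison cannot address a gain in part of the cells, in part of an arm or in both libraries. Copy number was not tested.

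Summed pileups, in which strong regions weigh more, put 12p above 12q. The log2 ratios were −0.049 (−0.066 to −0.033) on 12p and −0.115 (−0.124 to −0.105) on 12q, with intervals that did not overlap. They were −0.24 on 17q and −0.11 on 17p, and −0.19 on 20q and −0.01 on 20p. Chromosome 20 had the largest difference between its arms in summed pileups among the 18 chromosomes with both arms covered, chromosome 17 ranked 5 and chromosome 12 ranked 12. The median size of that difference over chromosomes was 0.08. Ordered from the lowest median ratio among 41 arms, 17q was in place 3 and 20q in place 5, with 22q (−0.32) and 16p (−0.29) below 17q. 12p shared place 12 with other arms at −0.13.

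**Figure D1:**
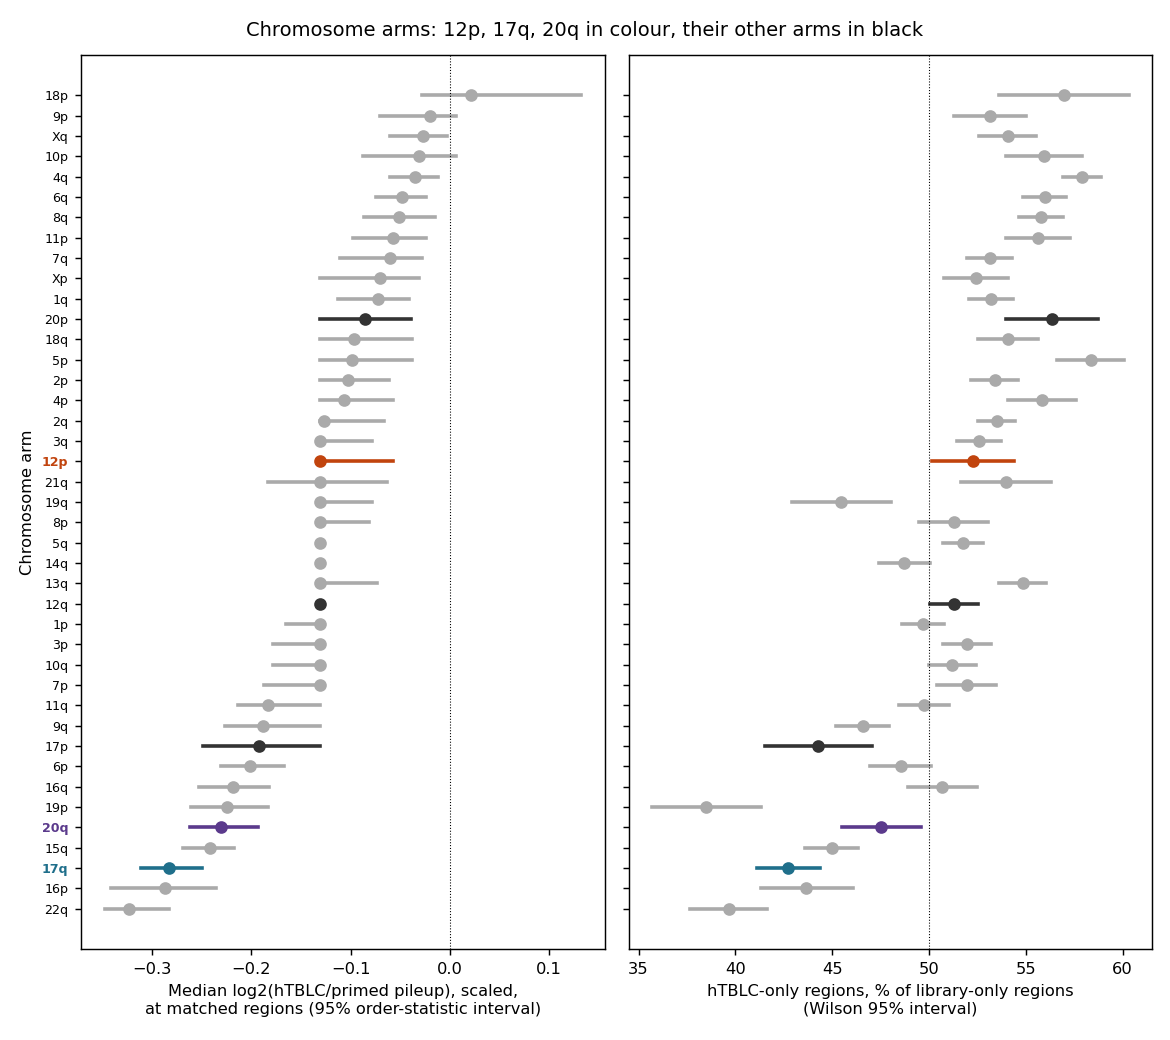
Median log2 ratio of hTBLC to primed pileup at matched regions (left) and share of hTBLC-only regions among all library-only regions (right) for 41 chromosome arms, ordered by the median ratio; bars are 95% intervals. 17q (−0.28) and 20q (−0.23) lie near the low end, 12p (−0.13) lies in the middle, and the black points are 12q, 17p and 20p.

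Differences of at least 2-fold followed the same order. Over all matched regions, 7.66% were at least 2-fold higher in hTBLC and 13.3% at least 2-fold higher in primed. On 12p, 118 regions (7.39%) were higher in hTBLC and 205 (12.8%) higher in primed, near the shares over all arms. On 17q, 144 (4.65%) were higher in hTBLC and 489 (15.8%) higher in primed. On 20q, 111 (6.20%) were higher in hTBLC and 268 (14.97%) higher in primed.

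Regions found in 1 library only gave the same ranking of the arms. Over all arms, 37.3% of primed regions touched no hTBLC region and 39.2% of hTBLC regions touched no primed region. On 12p, 1032 regions (37.2%) were primed-only and 1131 (38.9%) hTBLC-only, so hTBLC-only regions made up 52.3% (Wilson interval 50.2 to 54.4) of the library-only regions, against 51.3% (50.1 to 52.5) on 12q. On 17q, 1990 regions (36.5%) were primed-only and 1485 (29.9%) hTBLC-only, a share of 42.7% (41.1 to 44.4), against 44.3% (41.6 to 47.0) on 17p. On 20q, 1226 regions (38.3%) were primed-only and 1111 (35.7%) hTBLC-only. The 20q share was 47.5% (45.5 to 49.6) and that of 20p 56.4% (54.0 to 58.7), a difference of −8.83 percentage points. The intervals of the arm and its other arm overlapped on chromosomes 12 and 17 and did not overlap on chromosome 20.

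Gene density moved with these values. 17q held 14.8 protein-coding genes per Mb and 20q 10.6, places 4 and 8 from the densest of the 41 arms, and 12p held 8.63. Their other arms held 15.3 (17p), 7.04 (20p) and 7.74 (12q). Across the 41 arms, Spearman's rho of gene density was −0.70 with the median log2 ratio and −0.82 with the hTBLC-only share. The arms share both libraries, and this is a description only. 11q and 6p, which are closest to 20q in gene density, had median log2 ratios of −0.18 and −0.20. 16p, after 17p the closest to 17q, had −0.29. The part of gene density in the arm differences was not tested.

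A gain carried by both libraries was looked at in each library alone, through the local background at peaks. The median background on 12p over that on 12q was 0.99 in both libraries. The value for 17q over 17p was 1.10 in primed and 1.07 in hTBLC, and for 20q over 20p it was 1.14 and 1.06. The solved background has a floor, at which 26.9% to 43.7% of the regions of the 3 arms lay, so these ratios can understate a difference and cannot be read against a change in copies. Both libraries had a higher background on 20q than on 20p by the median, while the mean over 20q was 1.06 times that of 20p in primed and 0.99 times in hTBLC. The background is taken near called peaks, so it also moves with how densely open regions lie.

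Classes of region were also compared. On 17q, regions within 1 kb of a protein-coding gene end had a median log2 ratio of −0.18 (604 regions), regions in gene bodies −0.32 (1686) and intergenic regions −0.28 (810). On 20q the medians were −0.13 (270), −0.29 (893) and −0.19 (627). On 12p they were 0.06 (190), −0.14 (992) and −0.04 (415). Over all arms they were −0.02, −0.13 and −0.13, so each of the 3 classes was lower on 17q and on 20q than over all arms. Against the other arm, gene ends of 17q were at the level of those of 17p (−0.19), while gene bodies (−0.21 on 17p) and intergenic regions (−0.15 on 17p) were lower on 17q. On 20p the values were 0.06, −0.08 and −0.13, above 20q in each class.

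Along each arm the ratio was searched for its largest step, the place that best divides the matched regions into a lower and a higher stretch. On 12p the step lay at 11.79 Mb: the 616 regions towards the telomere had a median of −0.29 and the 981 regions towards the centromere a median of 0.07. On 17q the step lay at 74.2 Mb, with −0.24 before it (2413 regions) and −0.42 after it (687 regions). On 20q the step lay at 32.64 Mb, with 0.16 before it (91 regions) and −0.25 after it (1699 regions). In all 3 the higher side faced the centromere, which held for 39 of the 41 arms. The step of 20q, −0.40, ranked 9 in size among the 41 arms, that of 12p, 0.36, ranked 13 and that of 17q, −0.18, ranked 38. The median size was 0.28 and the largest 0.70. By the search statistic that placed the steps, that of 12p ranked 9 among the 41 arms, that of 17q 33 and that of 20q 37. The place on 17q was not stable: it moved to 62.66 Mb among peaks with a −log10 q of 5 or more.

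Stretches with both ends inside an arm were also located. The most raised stretch of 12p ran from 26.86 to 33.1 Mb (271 regions, median 0.16 against −0.15 outside) and its most lowered one from 1.82 to 10.09 Mb (−0.32 against 0.02). The most raised stretch of 17q ran from 50.09 to 58 Mb (407 regions, −0.04 against −0.32), and its most lowered one from 74.94 to 80.53 Mb (−0.51 against −0.25). On 20q the most raised stretch was not 20q11.21: it ran from 53.33 to 58.07 Mb (228 regions, 0.08 against −0.27). The most lowered stretch of 20q ran from 34.01 to 36.85 Mb (148 regions, −0.58 against −0.20). By the search statistic the raised stretches ranked 16, 13 and 14 among the 41 arms.

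Windows of 1 Mb matched these stretches only in part: the highest windows of 17q and 20q lay outside the most raised stretches. The highest window of 12p lay at 29 to 30 Mb (median 0.36, 29 matched regions, 31 primed-only and 48 hTBLC-only regions) and the lowest at 2 to 3 Mb (−0.52, 58 regions, 50 and 33). The highest window of 17q was the first after its limit, at 27 to 28 Mb (0.35, 38 regions, 21 and 29), and the lowest lay at 75 to 76 Mb (−0.66, 83 regions, 35 and 21). The highest window of 20q lay at 31 to 32 Mb in 20q11.21 (0.28, 54 regions, 10 and 29), and the lowest at 36 to 37 Mb (−0.58, 71 regions, 47 and 21). Of 2774 such windows over all arms, 5% lay below −0.44 and 5% above 0.27.

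**Figure D2:**
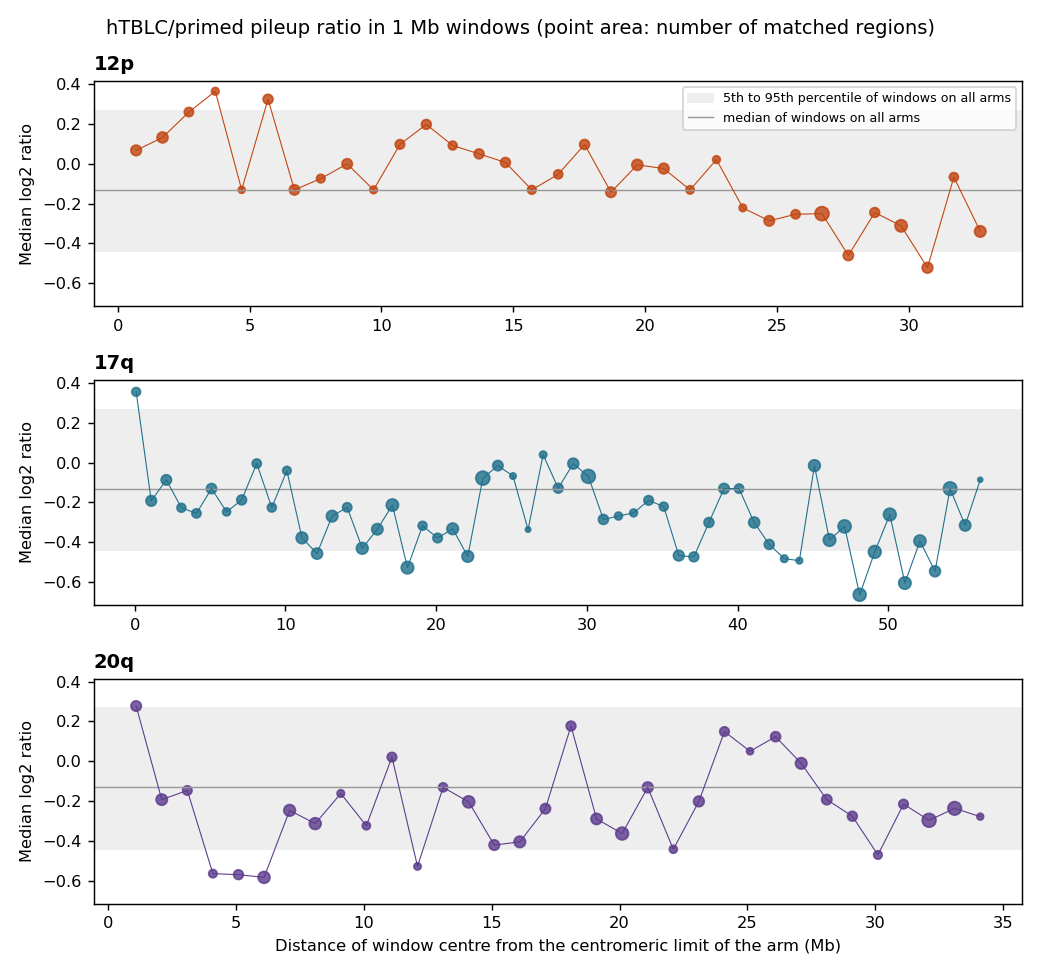
Median log2 ratio of hTBLC to primed pileup in 1 Mb windows with at least 10 matched regions along 12p, 17q and 20q, against the distance of the window from the centromeric limit of the arm; point area grows with the number of regions and the grey band spans the 5th to 95th percentile of windows on all arms. The highest windows, 0.36 on 12p, 0.35 on 17q and 0.28 on 20q, all lie within 5 Mb of that limit, and the lowest, −0.52, −0.66 and −0.58, lie further out.

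20q11.21 was then taken alone, as the first 3 Mb after the lower limit of 20q. Its 131 matched regions had a median log2 ratio of 0.01 (−0.20 to 0.19), against −0.24 (−0.28 to −0.21) at the other 1659 regions of 20q, a difference of 0.26. Pileups there summed to 4732 in primed and 5613 in hTBLC. The interval of the single ratio lay above 1 at 25 of these regions (19.1%) and below 1 at 19 (14.5%), against 127 (7.66%) and 327 (19.7%) on the rest of 20q and 11.20% and 18% over all matched regions. Library-only regions numbered 75 in primed and 97 in hTBLC, an hTBLC-only share of 56.4% (48.9 to 63.6) against 46.8% (44.7 to 48.9) on the rest of the arm.

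The excess was not spread evenly over the band. No matched region lay within the first 1.06 Mb after the limit. In the window from 31.5 to 32.0 Mb, 51 matched regions had a median log2 ratio of 0.28 (0.10 to 0.55). The unscaled hTBLC pileup exceeded the primed one at 35 of them (68.6%), against 41.7% of matched regions on the rest of 20q. Pileups in this window summed to 1886 in primed and 2704 in hTBLC, a log2 ratio of 0.39 (0.30 to 0.47). Its library-only regions numbered 8 in primed and 23 in hTBLC, and the mean log2 ratio of local backgrounds was 0.29. The next windows fell back to −0.19 at 32.0 to 32.5 Mb (26 regions), −0.17 at 32.5 to 33.0 Mb (38 regions) and −0.47 at 33.0 to 33.5 Mb (20 regions). Against the rest of 20q, the high window was raised by 0.53 in its median and by 0.61 in summed pileups. Relative to its own arm's median, this window ranked 131 among 5243 windows of 0.5 Mb, and 6 among the 521 of them with at least 40 matched regions. By the plain ratio it ranked 285 of 5243.

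**Figure D3:**
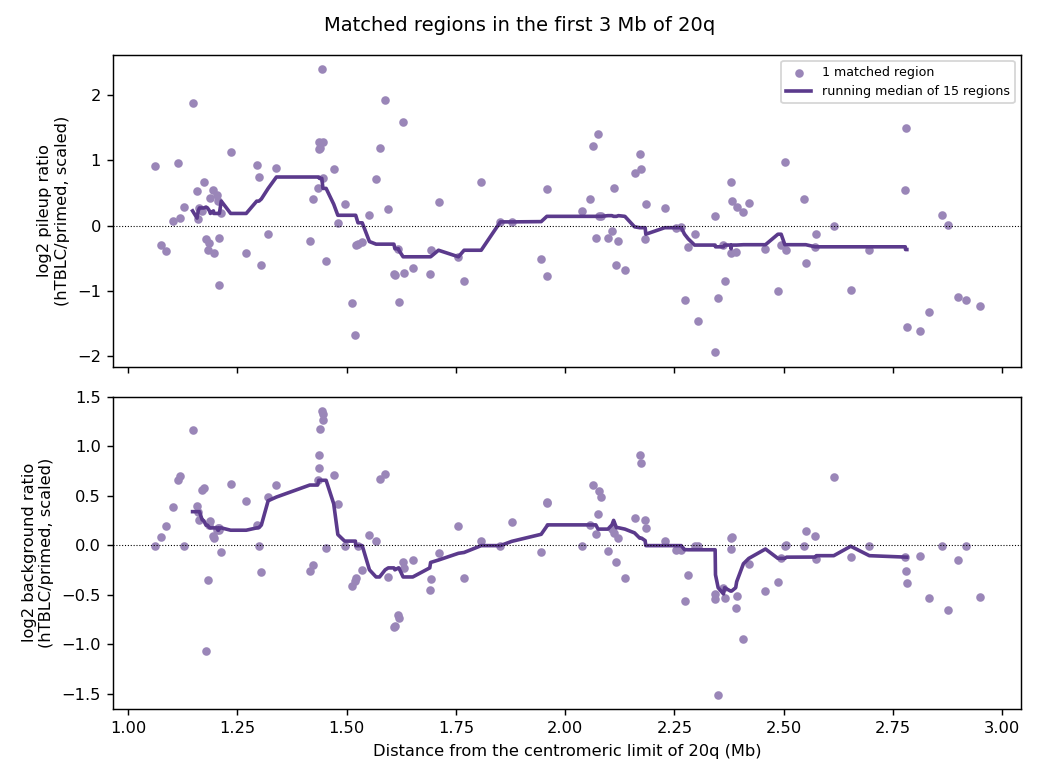
Log2 ratio of hTBLC to primed pileup (top) and local background (bottom) at the 131 matched regions in the first 3 Mb of 20q, against the distance from the lower limit of the arm; the line is a running median of 15 regions. Both lines are highest between 1.25 and 1.5 Mb and lie mostly under 0 beyond 2.25 Mb.

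The same comparison was made next to the centromere of every arm with at least 20 matched regions within 3 Mb of the centromeric bands. The median was higher there than on the rest of the arm on 32 of 33 arms, with a median difference of 0.28 and a range from −0.02 to 0.83. 20q, with 0.26, ranked 20 of these 33. On 12p the 152 regions next to the centromere had a median of 0.13 against −0.13 on the rest, a difference of 0.26 (rank 18). On 17q the 158 regions had −0.02 against −0.30, a difference of 0.28 (rank 17). By this measure the raised level at the start of 20q was within the range of the other arms.

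**Figure D4:**
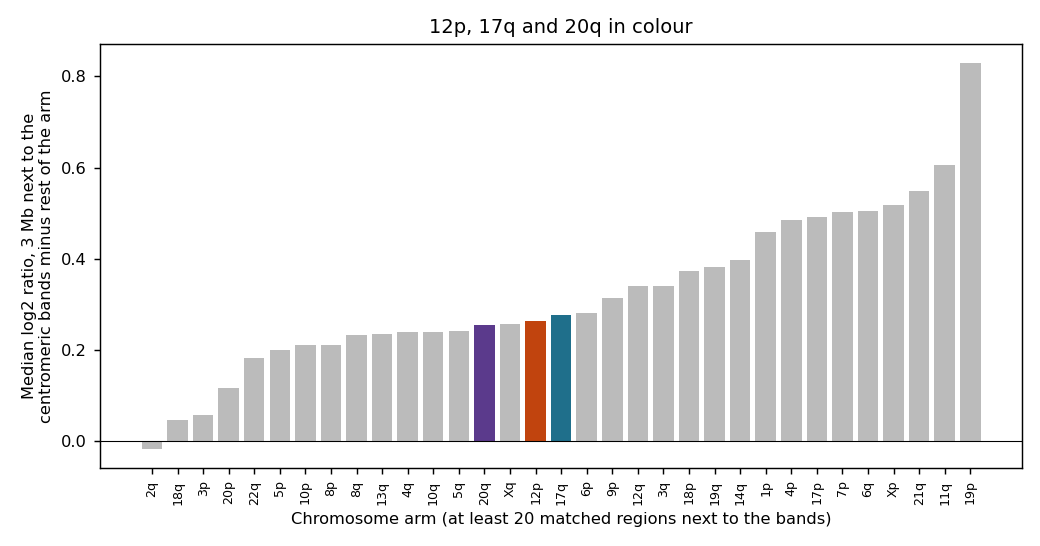
Median log2 ratio of hTBLC to primed pileup in the 3 Mb next to the centromeric bands minus that on the rest of the arm, for 33 chromosome arms, with 12p, 17q and 20q in colour. The bars of 20q (0.26), 12p (0.26) and 17q (0.28) stand in the middle of the order, and 1 bar, that of 2q, is under 0.

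At the starts of 20q11.21 with a region over the window in both libraries the ratio was above 1, while gene ends of the band were mixed. The start of BPIFB3, also in the band, had a region over its window in primed alone and so has no promoter ratio. That region matched an hTBLC region outside the window and went from 18 to 10 (0.51, 0.21 to 1.16). A promoter region was a region overlapping the window from 250 bases before to 50 bases after an annotated start, and the sequence table has 1 start per gene. The first 3 Mb of 20q held 12 such regions with a ratio, and 12 of 12 lay above 1, with a median of 1.38 (log2 0.47, 0.16 to 0.67). The interval lay above 1 at 5 of them (41.7%) and below 1 at none, where the shares over all promoters were 18.3% and 13.3%. Over all arms, 53.6% of promoter regions had a ratio above 1. On the rest of 20q, 62 of 145 (42.8%) had one, with a median log2 ratio of −0.09. The interval there lay above 1 at 12 and below 1 at 29. Of the 29 matched regions within 1 kb of either end of a gene in the band, 13 had a ratio under 1 (44.8%). That share was 61.8% at gene ends on the rest of 20q and 51.4% over all gene ends. The interval lay above 1 at 6 of these 29 (20.7%) and below 1 at 5 (17.2%), where the shares over all gene ends were 14.5% and 15.7%. Their median log2 ratio was 0.15 (−0.39 to 0.37), against −0.13 at gene ends on the rest of 20q. Among 421 windows of 3 Mb with at least 10 promoter regions the first of 20q ranked 15. Among the 13 such windows that adjoin a centromere it ranked 5, with a median of 0.46 over them, 12p at 0.43 and 17q at 0.09.

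The promoter pileup of BCL2L1 was 107 (87.7 to 129) in primed cells and reached 174 (149 to 202) in hTBLCs, which gave a scaled ratio of 1.49 (1.16 to 1.91). The local background beside it went from 8.68 to 13.3. Matched regions in the gene body of BCL2L1 had intervals that included 1, among them 1 with 51 in both libraries (0.91, 0.61 to 1.37). ASXL1, a chromatin regulator of the Polycomb system, went from 121 (100 to 145) to 196 (170 to 225), a ratio of 1.48 (1.17 to 1.87). A region 1063 bp inside ASXL1, at 32358902 to 32359556, went the other way, from 42 to 27 (0.59, 0.35 to 0.97). At DNMT3B, the de novo DNA methyltransferase gene of early embryonic and pluripotent cells, regions differed in direction. At the inner start the pileup went from 49 (36.3 to 64.8) to 85 (67.9 to 105), a ratio of 1.58 (1.10 to 2.30). The region at the outer start, at 32761704 to 32762745, went from 46 to 41 (0.81, 0.52 to 1.27). The region 2434 bp inside the gene, at 32764619 to 32765015, went from 90 to 55 (0.56, 0.39 to 0.79).

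PLAGL2, a zinc finger factor, and POFUT1, an enzyme that puts O-fucose on Notch, share 1 promoter region. It went from 54 to 94, a ratio of 1.59 (1.13 to 2.26). TPX2, a spindle assembly factor, has no window in the sequence table. The region at its gene end went from 78 to 158, a ratio of 1.85 (1.4 to 2.46). MCTS2, a retrogene inside HM13, was named after its values were seen: its promoter went from 9 to 36, a ratio of 3.65 (1.73 to 8.62).

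Other promoters of the band had intervals that included 1. ID1, which encodes an inhibitor of basic helix-loop-helix factors, went from 81 to 115 (1.30, 0.97 to 1.74). MAPRE1, which encodes a microtubule end-binding protein, went from 71 to 99 (1.27, 0.93 to 1.75). DUSP15, which encodes a phosphatase, went from 17 to 34 (1.83, 0.99 to 3.49), PDRG1 from 54 to 66, TM9SF4 from 27 to 38, the kinesin gene KIF3B from 43 to 49 and COMMD7 from 14 to 17. The 5 gene end regions of the band with an interval below 1 were named after their values were seen. They were those of CCM2L (98 to 65, 0.61, 0.44 to 0.84), C20orf203 (28 to 14, 0.46, 0.22 to 0.90) and BPIFA2 (24 to 9, 0.34, 0.14 to 0.76), and 2 of COMMD7. The latter went from 49 to 14 at 32743771 to 32744363 (0.26, 0.13 to 0.48) and from 25 to 10 at 32703146 to 32703430 (0.37, 0.16 to 0.79).

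Of the 31 genes listed for 20q, 24 had a ratio at the promoter or, without a window, at a gene end, and the median of their log2 ratios was 0.37. The interval lay above 1 at 7 of them (PLAGL2 and POFUT1 through 1 shared region), below 1 at 1 and included 1 at 16. As shares of the 24 they stand beside 18.3% above and 13.3% below over all promoters. Outside the first 3 Mb the gene with an interval above 1 was ZFP64, a zinc finger gene, from 55 to 88 (1.46, 1.03 to 2.09). The gene with an interval below 1 was CEBPB, a transcription factor of differentiation and inflammation, from 91 (73.3 to 112) to 58 (44.0 to 74.98), a ratio of 0.58 (0.41 to 0.82). The pluripotency factor SALL4 went from 125 to 118 (0.86, 0.66 to 1.12), and the mitotic kinase gene AURKA from 112 to 134 (1.09, 0.84 to 1.42). E2F1 and MYBL2, cell cycle factors, went from 91 to 127 and from 45 to 67, with intervals that included 1. NOL4L, HNF4A and GNAS had no region at the 1 annotated start that was examined. The band's promoters are most of those with an interval above 1, so the list of 20q genes, which was weighted towards that band, does not describe the whole arm. Over all 172 promoters of 20q with a ratio, the median log2 ratio was −0.05 (−0.11 to 0.09), 18 had an interval above 1 (10.5%) and 31 below 1 (18.02%).

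Of 19 listed genes of 12p, 15 had a ratio: the interval lay above 1 at 4, below 1 at 3 and included 1 at 8. They stand beside 18.3% above and 13.3% below over all promoters. ETV6, a transcriptional repressor of the ETS family, went from 11 (5.49 to 19.7) in primed to 62 (47.5 to 79.5) in hTBLC, a ratio of 5.15 (2.69 to 10.8), and 9 primed-only and 19 hTBLC-only regions lay nearest to it. The primed region of ETV6 was short and weak (11649596 to 11649849, fold enrichment 1.88). It lay inside a much longer hTBLC region (11648598 to 11650476, fold enrichment 6.69). How far this ratio depends on where primed peaks were divided was not tested. PTHLH, which encodes a parathyroid hormone related peptide and whose examined start lies 2756 bp inside the gene, went from 37 to 75 (1.85, 1.23 to 2.82), with 0 primed-only and 8 hTBLC-only regions nearest to it. KDM5A, a histone H3K4 demethylase, went from 47 to 82 (1.59, 1.10 to 2.33) and LDHB, a lactate dehydrogenase subunit, from 226 to 328 (1.33, 1.12 to 1.58).

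NANOG went the other way, from 35 (24.4 to 48.7) in primed to 21 (13 to 32.1) in hTBLC, a ratio of 0.55 (0.30 to 0.97). It has a duplicated copy, NANOGP1, on the same arm, and how reads that match both were placed is not given in the sources used here. PHB2, which encodes a mitochondrial prohibitin, went from 123 to 93 (0.69, 0.52 to 0.91) and RAD51AP1, a homologous recombination factor, from 78 to 58 (0.68, 0.47 to 0.97). The intervals of the cyclin gene CCND2 (72 to 84), the cell cycle inhibitor gene CDKN1B (64 to 90) and the glucose transporter gene SLC2A3 (52 to 58) included 1. GAPDH, DPPA3 and GDF3 had no region at the annotated start examined, but that of GAPDH lies 746 bp inside the gene, and the region at its outer start went from 139 to 176 (1.16, 0.92 to 1.45). Over all 130 promoters of 12p with a ratio, the median log2 ratio was 0.11 (0.01 to 0.27), against 0.04 on 12q, with 35 intervals above 1 (26.9%) and 18 below 1 (13.8%).

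No listed gene of 17q had an interval above 1. Of 25 genes, 22 had a ratio, with 3 intervals below 1 and 19 that included 1. Over all promoters 18.3% had an interval above 1 and 13.3% below 1, so the count below is near that share. The S-phase gene TK1, thymidine kinase, went from 168 (144 to 195) in primed to 131 (110 to 155) in hTBLC, a ratio of 0.71 (0.56 to 0.90). The other 2 with intervals below 1 encode splicing factors: the helicase gene DDX42 went from 200 to 161 (0.74, 0.59 to 0.91) and the SR protein gene SRSF1 from 125 to 100 (0.73, 0.56 to 0.96).

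The list of 17q held 6 genes of RNA splicing. Besides DDX42 and SRSF1, EFTUD2, a GTPase of the U5 particle, went from 45 to 31 (0.63, 0.38 to 1.02) and the helicase gene DDX5 from 72 to 57 (0.72, 0.50 to 1.04). SRSF2 went from 109 to 101 (0.85, 0.64 to 1.12) and DHX8 from 62 to 68 (1.002, 0.70 to 1.44), so 2 of the 6 intervals lay below 1 and 4 included 1. Over the promoters of 17q, 17.7% lay below 1, and nothing is read from so small a count. BIRC5 went from 46 to 45 (0.89, 0.58 to 1.38), STAT3 from 127 to 146 (1.05, 0.82 to 1.34), ERBB2 from 45 to 60 (1.22, 0.81 to 1.83) and TOP2A from 75 to 78 (0.95, 0.68 to 1.32). MSI2, an RNA-binding protein gene, had a region over its promoter window in hTBLC alone, with a pileup of 36 (25.2 to 49.8). That region touched a primed region with a pileup of 29 that stopped short of the window. Over all 384 promoters of 17q with a ratio, the median log2 ratio was −0.11 (−0.17 to −0.05), against −0.13 on 17p, with 22 intervals above 1 (5.73%) and 68 below 1 (17.7%).

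**Figure D5:**
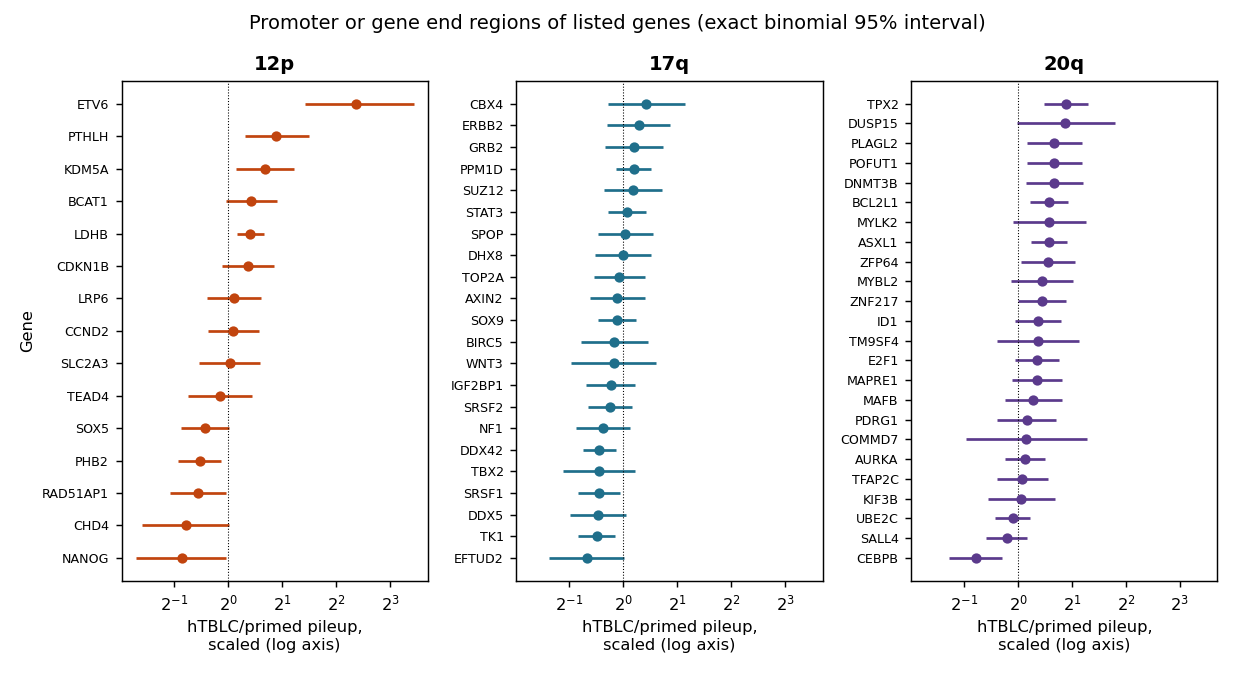
Scaled ratio of hTBLC to primed pileup (log axis, exact binomial 95% interval) at the promoter, or at a gene end where the sequence table has no promoter, for the listed genes of 12p, 17q and 20q that have a ratio. ETV6 (5.15) is the highest on 12p and NANOG (0.55) the lowest, no 17q interval lies above 1, and 6 of the 7 20q intervals above 1 belong to genes of 20q11.21, that of DNMT3B at an inner start.

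Promoters with a region over the window in 1 library alone were few. Over all promoters 3.57% had one in primed alone and 2.68% in hTBLC alone. On 12p, 2 of 207 (0.97%) were in primed alone and 6 (2.90%) in hTBLC alone. On 17q, 26 of 578 (4.50%) were in primed alone and 18 (3.11%) in hTBLC alone. On 20q, 12 of 251 (4.78%) were in primed alone and 8 (3.19%) in hTBLC alone.

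The GC content of promoters was held within 3 equal classes over all promoters. On 12p the median log2 ratios were 0.15, 0.11 and 0.14 from low to high GC, and on 17q they were −0.11, −0.08 and −0.13. On 20q they were −0.09, −0.10 and 0.11, and on 20p 0.26, 0.23 and 0.18. In each class 20q was lower than 20p. On 17p they were −0.21, −0.05 and −0.20, so 17q was higher than 17p at low and high GC and lower at middle GC. On 12q they were 0.02, 0.06 and 0.03, under 12p in each class. The intervals of each arm and its other arm overlapped in every class, and the classes of 12p, 17q and 20q held from 22 to 149 promoters.

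The regions of most extreme ratio are given as a description, since their ratios chose them. On 20q, a region at 31842480 to 31843473, 1263 bp from FOXS1, a forkhead gene, went from 22 to 127, a ratio of 5.27 (3.34 to 8.71), inside the high window of 20q11.21. A region in a gene body near TRPC4AP, at 34979742 to 34980202, went from 126 to 18 (0.13, 0.07 to 0.21). On 17q, a region in a gene body 23959 bp from PCTP, which encodes a phosphatidylcholine transfer protein, at 55774822 to 55775452, went from 12 to 86 (6.55, 3.56 to 13.2). A region 4055 bp from the calcium channel gene CACNB1, at 39177247 to 39177725, went from 142 to 17 (0.11, 0.06 to 0.18). On 12p, a region 46833 bp from ABCC9, at 21987704 to 21988467, went from 7 to 44 (5.74, 2.57 to 15.1), and a region 119 bp from the end of P3H3, at 6839711 to 6840183, went from 56 to 10 (0.16, 0.07 to 0.32).

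The strongest primed-only region on each arm was stronger than the strongest hTBLC-only one. On 12p the former lay 383 bp from an end of LTBR, the lymphotoxin beta receptor gene (chromosome 12, 6375310 to 6375971, pileup 104, 85.0 to 126), and the latter in a gene body 10315 bp from FBXL14 (1584360 to 1584691, pileup 83, 66.1 to 103). On 17q they lay 3288 bp from SMARCD2, which encodes a SWI/SNF subunit (63839218 to 63839569, pileup 124, 103 to 148), and 1975 bp from KSR1 (27458256 to 27458871, pileup 74, 58.1 to 92.9). On 20q they lay 5310 bp from LAMA5, a laminin gene (62361838 to 62362388, pileup 113, 93.1 to 136), and 29919 bp from CTNNBL1 (37842011 to 37842367, pileup 71, 55.5 to 89.6). The Poisson intervals of the pair overlapped on 12p and did not overlap on 17q or 20q. Their pileups chose these regions and the intervals leave that choice out, so nothing is read from the overlap.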

How the data were processed

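ATAC-seq peak lists of 1 primed and 1 hTBLC library of WIBR3 were used. The submitters' processing notes name Bowtie2, Picard, MACS2 and hg38. Of versions, thresholds and duplicates nothing is stated there. Each line that the authors deposited holds a fold ratio over local background, a −log10 p and a −log10 q, a score that was not used, and a summit offset. The lists end at a −log10 p of 2.00 (primed) and 2.83 (hTBLC), so weak regions are called on unequal terms; 252 and 327 peak ranks without a line were not analysed here.

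A whole pileup and its background were solved from the authors' fold ratio and −log10 p, with fold as pileup plus 1 over background plus 1 and p as a Poisson tail, within 0.001 in −log10 p. This succeeded for 99.999% and 99.998% of peaks. Read totals were not used here, so 1.96 over 1.79 served as relative depth. Peaks on chromosomes 1 to 22 and X were merged; 16 elsewhere in each list were left out. Regions overlapping by 1 bp were shared. Medians have order-statistic intervals, shares Wilson intervals, pileups exact Poisson and ratios exact binomial intervals (95%).

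Arms were bounded by the centromeric bands of hg38, entered by hand and not checked against a file, except for the 3 limits given with the arms; 41 arms with at least 100 matched regions were used. A step needed 50 regions on each side, with log2 ratios limited to 2 in size. Promoters and genes came from RefSeq tables of GRCh38.p14 with 15812 protein-coding promoters; 14 of 19 listed genes on 12p, 16 of 25 on 17q and 20 of 31 on 20q had one, and other genes were read within 1 kb of a gene end, which can be the 3′ end. The table gives 1 start per gene, which need not be the outermost. No sample is paired, and no test was made between libraries.

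Named were listed genes of each arm, the 3 regions per arm and direction of largest ratio with a pileup of at least 30, the 3 strongest library-only regions per arm and library (each by a gene end within 50 kb), and the highest and lowest 1 Mb window; a part of these is given, and some genes the rule selects are left out. The arms, gene lists and comparisons were chosen with earlier results of these data known. Scripts ran in Python 3.11.15 with numpy 2.4.6, pandas 2.3.3 and scipy 1.17.1 and were tested on simulated data. Alternatives covered stricter q and pileup limits, a common p limit, overlap rules, summed pileups, background subtraction, gene ends left out, the strongest 50000 regions, step and window sizes.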

Additional observations from a re-analysis of the deposited data

How the results depend on the processing

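Of 80 recomputed values, 69 stayed within their interval for counting error or spread over regions and 11 moved by more. Background ratios are always positive, so a change of sign cannot be read from them. Among the other values none changed sign against a main value other than 0. The median difference of 12p from 12q, 0 in the main analysis, became 0.051 at a −log10 q of at least 5, 0.065 with summed pileups and 0.048 at pileups of at least 20. For 17q it ranged from −0.13 to −0.04 and for 20q from −0.19 to −0.12. In the strongest 50000 regions of each list the difference in hTBLC-only share from the other arm was 5.15 points on 12p, −6.74 on 17q and −13.05 on 20q. The primed background of 12p over 12q was 0.9504 at matched regions. With means in place of medians the background ratio was 1.02 in primed and 0.995 in hTBLC for 17q, and 1.06 and 0.98997 for 20q. These hTBLC means lay below 1, while the hTBLC medians lay above it (1.07 for 17q and 1.06 for 20q). The hTBLC background of 12p over 12q passed from 0.99 to 1.007 under the stricter q limit of 5. The primed ratios stayed on the same side of 1. The cause of these moves was not tested. The difference of the first 3 Mb of 20q from the rest of the arm ranged from 0.24 to 0.37. Leaving out the 3 Mb next to the centromeric bands, promoter GC classes, windows of 0.5 Mb, the gene ends of 20q11.21 and the comparison next to every centromere were added after the data were seen. No paired analysis was possible because each group has 1 library. With 1 library per state, differences between cultures, passages or preparations cannot be told apart from the state, and pileups of 10 to 30 leave wide intervals on single regions.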
